A study of Mus musculus with 26 samples.

Results

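Loss of galectin-3 was examined in left ventricles of mice that overexpress the kinase Mst-1. The comparison sets 5 libraries of the double genotype (Mst1Gal3, Mst-1 overexpressing and knocked out for galectin-3) against 7 libraries of Mst-1 overexpression alone (MstTg), 12 of the 26 libraries of the series, over all 15249 genes of the count table. For each gene the change was related to 6 wild-type libraries (wt), to ask whether the knockout moved it towards the wild-type level or away from it. A further 8 libraries with the knockout but without the transgene (Gal3Ko) gave the effect of the same knockout outside the Mst-1 background. All mice carried the C57BL6 background, and the design text presents the Mst-1 animal as a common model of dilated cardiomyopathy. The labels used here give no age or sex, no promoter for the transgene and no description of the knockout allele, and they do not say that every library came from its own animal. The p-values therefore measure the spread between libraries.

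Mst-1, encoded by Stk4, is a kinase of the Hippo pathway, which restrains the coactivators YAP and TAZ. In mouse heart muscle, excess Mst-1 is known to promote cell death and dilation of the ventricle. Galectin-3, encoded by Lgals3, is a lectin that binds galactoside sugars on glycoproteins and is studied in heart failure for its links to fibrosis and inflammation. Interferon response genes form the main theme of the results, and whether any type of interferon acted on them was not tested. Type I interferons act through a receptor that activates a transcription factor with IRF9 as a subunit. It binds interferon response elements, pairs of GAAA repeats, in promoters of antiviral genes.

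Library totals ran from 18580405 to 32663735 counts, and levels are given as CPM, the counts scaled to library size with TMM factors, so that 1 count was worth 0.0308 to 0.0452 CPM in the 12 libraries. Levels in CPM are not corrected for gene length and are compared here only between groups. A gene is called when its adjusted p (edgeR quasi-likelihood test, Benjamini-Hochberg over all genes) lies under 0.05. All 15 cardiomyocyte markers were measured and summed to 128606 to 150339 CPM in Mst1Gal3 and 118181 to 139795 CPM in MstTg. They mark heart muscle and do not tell the left ventricle from the other chambers. The atrial genes Myl7, Myl4 and Sln together exceeded 30 CPM in 6 of the 26 libraries, among them MstTg replicate 5 at 35.4 CPM and Mst1Gal3 replicate 3 at 127 CPM. Mitochondrial-genome transcripts took 18.7% ± 2.95 of counts in Mst1Gal3 (SD, n = 5) and 17.7% ± 2.79 in MstTg (n = 7; exact permutation test, two-sided, adjusted p = 0.772 over 7 measures). The adjusted p was 0.985 for total counts, 0.228 for the share of the 10 most abundant genes and 0.985 for red blood cell genes (the same exact test). The number of genes detected was 15246 ± 1.14 in Mst1Gal3 and 15241 ± 3.64 in MstTg, of 15249 (adjusted p = 0.0412, the same exact test). The summed atrial list was lower in Mst1Gal3 (1604 against 2400 CPM, adjusted p = 0.0177, the same exact test), and Nppa made up most of it. Skeletal muscle markers, of which Ckm is also a cardiac gene, summed to 538 against 413 CPM (adjusted p = 0.0354, the same exact test).

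Both groups carried a high level of the transgene. Stk4 stood at 978, 1168, 955, 840 and 944 CPM in the 5 Mst1Gal3 libraries, and between 846 and 1066 CPM with a median of 943 CPM in MstTg. Wild-type libraries lay between 22.4 and 26.1 CPM. The groups overlapped, and the difference of Mst1Gal3 from MstTg was 0.04 ± 0.07 on the log2 scale (± values of log2 changes are SE; adjusted p = 0.808). Lgals3 was read at 2.54, 3.58, 4.13, 3.88 and 5.43 CPM in Mst1Gal3, against 50.9 to 60.0 CPM in MstTg. The groups were far apart, with a log2 change of -3.81 ± 0.13 (adjusted p = 8.1e-19). The remaining level was nonetheless above wild type (0.878 to 2.42 CPM, log2 change 1.27 ± 0.17, adjusted p = 1.6e-07), and in Gal3Ko it was 1.47 to 2.74 CPM. Which exons the allele removes is not given in the sources used here, so reads from parts that remain cannot be told apart from intact transcripts.

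**Figure D1:**
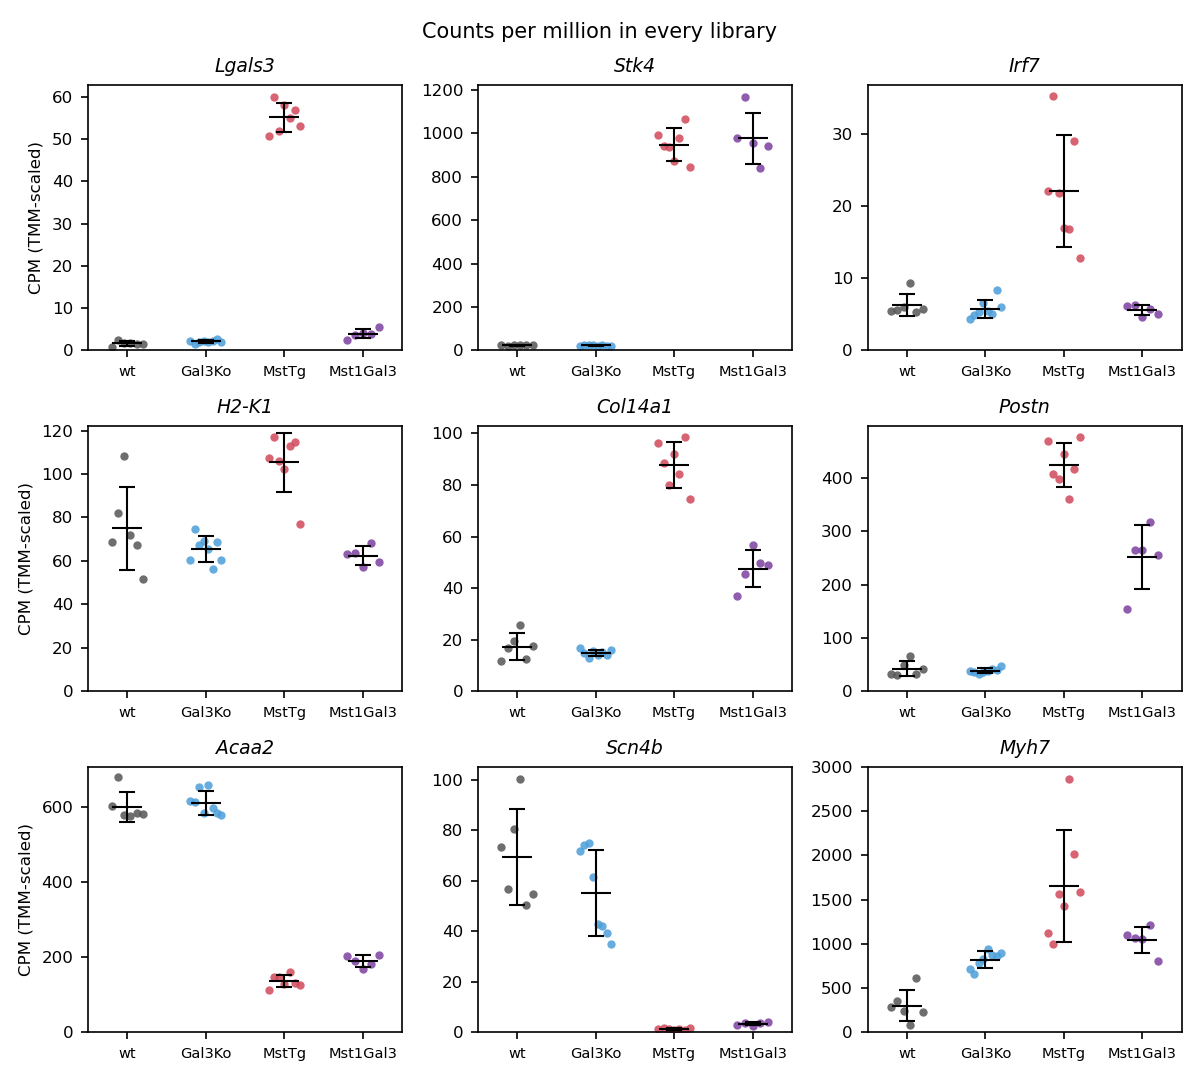
CPM (vertical axes, linear and starting at 0) in each library of the 4 groups for 9 genes. Points are libraries, and bars give the group mean and SD. Lgals3 and Irf7 are low in all 5 Mst1Gal3 libraries, Col14a1 and Postn lie between wt and MstTg, and Stk4 and Myh7 overlap between MstTg and Mst1Gal3.

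Between Mst1Gal3 and MstTg 746 genes were called, 4.89% of those tested. A higher level was called for 387 (2.54%) and a lower level for 359 (2.35%), and the change reached 2-fold or more for 87 (0.571%). The libraries of the groups did not overlap for 504 genes (3.31%). The count depended on single libraries: 469 genes were called without Mst1Gal3 replicate 1 and 1040 without MstTg replicate 5. The higher genes numbered 225 and 237 without Mst1Gal3 replicates 1 and 4 and 631 without MstTg replicate 5. The total came to 1027 without the 6 libraries with atrial transcripts. The split by direction depended on the scaling. With library totals in place of TMM factors, which moved the median change of all genes from 0.02 to -0.06, 136 genes were higher and 558 lower.

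Most of the called genes moved back towards wild type. Mst-1 overexpression itself changed 8385 genes (MstTg against wt, 55.0%), and 7406 differed between Mst1Gal3 and wt (48.6%). The MstTg libraries enter both the Mst-1 change and the knockout change, so their opposite signs are not independent of each other. Among the 746 genes, 572 (76.7%) ran opposite to their Mst-1 change, 290 of them upwards and 282 downwards, with a median of 41.2% of the Mst-1 change gone (quartiles 25.6 and 78.8%). Of these, 389 still differed from wild type in the Mst-1 direction and had lost a median of 29.4%. Another 166 no longer differed from wild type by the test, 115 of them lower than in MstTg, and 17 were past it, of which 16 were lower. A p that misses the threshold does not show that a gene equals wild type. Another 58 genes moved further away, 44 upwards and 14 downwards, and for 116 no Mst-1 change was called. Without Mst1Gal3 replicate 1, 362 genes ran towards wild type, 33 ran away and 74 had no Mst-1 change called. Away genes numbered 37 without MstTg replicate 2 and 38 without Mst1Gal3 replicate 4. Genes past wild type numbered 28 without MstTg replicate 5 and 11 without wt replicate 6.

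**Figure D2:**
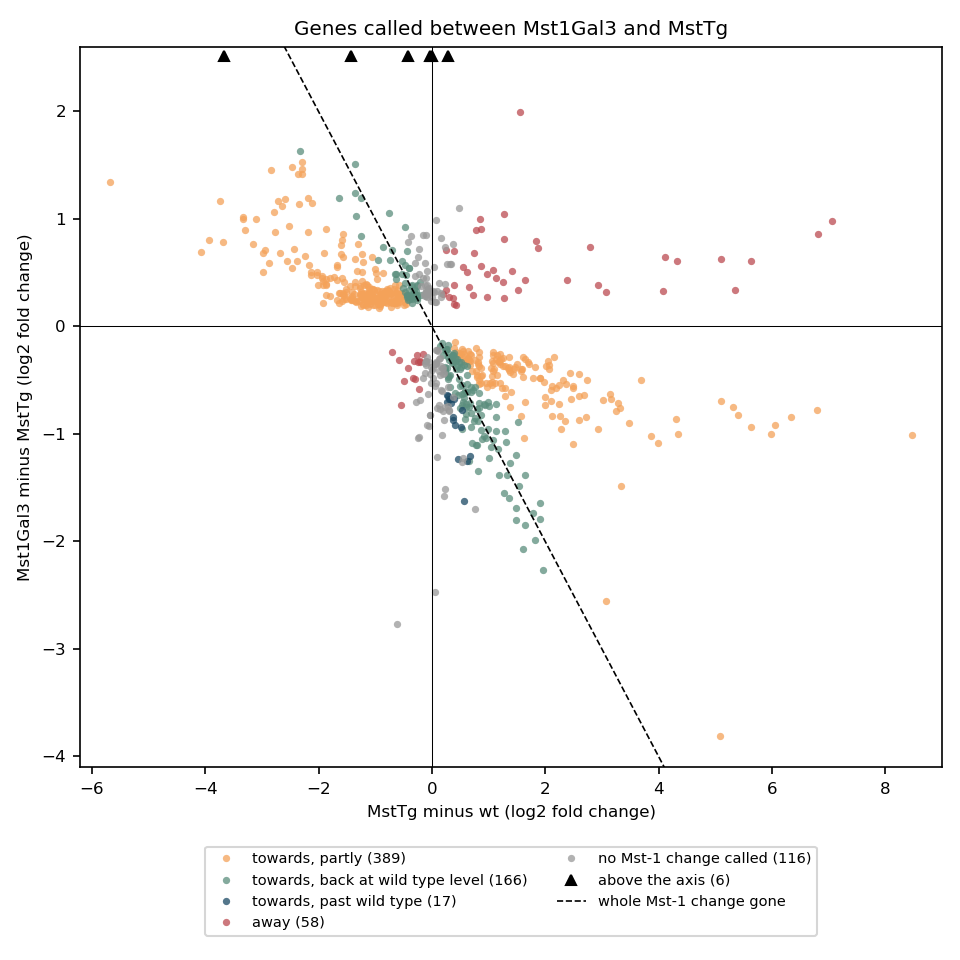
Log2 change of Mst1Gal3 from MstTg (vertical) against the log2 change of MstTg from wt (horizontal) for the 746 called genes, coloured by direction. Triangles mark 6 genes above the axis limit. Genes on the dashed line have lost the whole Mst-1 change; the 389 partly reversed genes lie between the line and the horizontal axis, and the 166 back at the wild-type level lie along the line. MstTg enters both axes.

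Of 30 interferon response genes, 29 were lower in Mst1Gal3 and none higher, against 2.35% of all genes called lower. Their median log2 change was -0.93, against 0.02 for all genes. Of the 30, 25 had been raised by Mst-1. Among the 29, 18 no longer differed from wild type, 5 were past it (among them Ifih1 and Parp14), 1 was still above (Ifi27l2a), and for 5 no Mst-1 change was called (Gbp7, Rsad2, Gbp2, Irf1 and Psmb9). In 24 of them the Mst1Gal3 libraries did not overlap those of MstTg, against 3.31% of all genes in either direction. The summed level of the list was 265 to 345 CPM in wt, 383 to 665 CPM in MstTg and 247 to 273 CPM in Mst1Gal3. The range in Mst1Gal3 lay wholly below that in MstTg and overlapped that in wt. The remaining gene, Ifi35, had a log2 change of -0.29 ± 0.10 (adjusted p = 0.084).

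Irf7, the transcription factor that amplifies type I interferon production, had the largest fall of the list. Its level was 6.10, 6.26, 4.62, 5.73 and 5.11 CPM in Mst1Gal3, against a lowest, median and highest value of 12.8, 21.8 and 35.3 CPM in MstTg and 5.30, 5.73 and 9.39 CPM in wt. All 5 libraries were below every MstTg library and within or just under the wild-type range, at a log2 change of -1.99 ± 0.21 from MstTg (adjusted p = 9.0e-07). The top of the wild-type range was wt replicate 4 alone. The other wt libraries lay at 5.30 to 6.05 CPM, just under the Mst1Gal3 values of 6.10 and 6.26 CPM. Ifit1, which binds foreign RNA and blocks its translation, stood at 3.69, 4.20, 3.52, 3.58 and 4.46 CPM, against 7.69 to 24.8 CPM in MstTg (log2 change -1.85 ± 0.21, adjusted p = 3.1e-06). Again the groups did not overlap, and wild type spanned 3.29 to 5.66 CPM. Usp18, which removes the ubiquitin-like protein ISG15 and damps receptor signalling, fell by 1.48 ± 0.17 on the log2 scale, from 5.16 to 10.6 CPM in MstTg to 2.66, 2.92, 2.31, 2.57 and 2.12 CPM. Ifih1, the double-stranded RNA sensor MDA5, fell by less (-0.78 ± 0.09) but had gone below wild type, at 11.6 to 15 CPM against 13.4 to 17.4 CPM, ranges that overlapped (log2 change -0.25, adjusted p = 0.032).

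Of the 10 largest falls over all genes that average 1 CPM or more and carry an established symbol, 3 were further members. The nucleic acid sensor Zbp1 and the antiviral factors Ifit3 and Mx1 fell by 1.79 ± 0.28, 1.74 ± 0.21 and 1.69 ± 0.29 on the log2 scale (adjusted p = 8.65e-05, 4.09e-06 and 0.000376). Oasl1, of the oligoadenylate synthetase-like family and outside the list, fell by 1.80 ± 0.26. For each of these 4 genes the Mst1Gal3 libraries were all below the MstTg libraries and no difference from wild type was called. Ifit3 shares near-identical sequence with Ifit3b, so reads may be divided between the copies. Pydc4, of the interferon-inducible Ifi200 cluster and outside the list, fell by 1.6 ± 0.2, from 2.59 to 5.80 CPM in MstTg to 1.05 to 1.51 CPM. Irf9, the DNA-binding subunit of the interferon-activated factor, was read at 14.3, 11.9, 12.8, 12.9 and 12.7 CPM against 18.4 to 28.4 CPM in MstTg (log2 change -0.80 ± 0.10, adjusted p = 5.4e-06). It lies 8.22 Mb from Lgals3 on chromosome 14, and the part of that position in the result was not tested.

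Outside the Mst-1 background no change of the list was detectable at this depth. None of the 30 genes was called in Gal3Ko against wt by edgeR, DESeq2 or either limma-voom fit, where edgeR called 0.354% of all genes. By edgeR 0 of the 30 had an unadjusted p under 0.05, against 6.66% of all genes, and by DESeq2 3 had. The median log2 change was -0.13. The test of the difference between the knockout effects (the interaction, 0.656% of all genes called) passed for 14 of the 30. For Irf7 the effect was -1.99 with Mst-1 and -0.12 without, a difference of -1.87 (adjusted p = 0.0022). Ifit1 (-1.67), Usp18 (-1.27), Ifit3 (-1.33), Irf9 (-0.78) and Ifih1 (-0.64) also passed. Beside the fall, no macrophage marker was called. The 5 lymphocyte markers measured of 21 listed summed to 18.8 to 25.7 CPM in Mst1Gal3 and 19.3 to 29.9 CPM in MstTg. In bulk tissue, fewer cells of a type and less RNA per cell cannot be told apart.

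**Figure D3:**
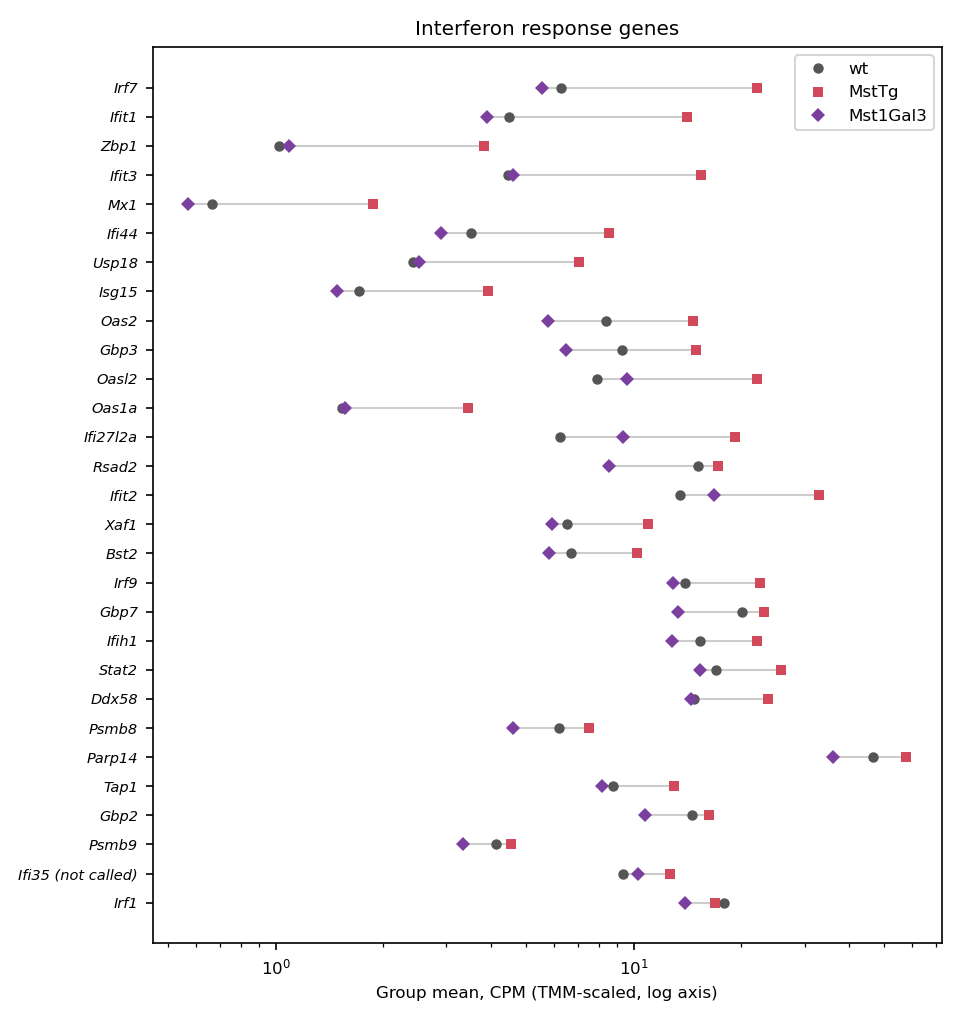
Group means in CPM (horizontal, log axis) of 29 of the 30 interferon response genes in wt (circles), MstTg (squares) and Mst1Gal3 (diamonds), ordered by log2 change. In all 28 called genes plotted the Mst1Gal3 mean lies below the MstTg mean, and for most it sits beside or below the wild-type mean, with Ifi27l2a, Oasl2 and Ifit2 above it. Ifi35 is marked as not called.

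The interferon response element core was searched for as GAAA, any 2 bases and GAAA, or on the other strand TTTC, any 2 bases and TTTC, in RefSeq promoters of the GRCm38.p6 build, which span 250 bases before to 50 after each gene's start. Of the genes tested, 10500 had a promoter in the table, and 3.8% of these held the motif. It was present in 19.1% of the 256 genes called lower that had a promoter and in 2.85% of the 281 called higher. The share was 30.1% of 83 promoters for genes that fell and no longer differed from wild type, 6.73% of 104 for genes that fell partly, and 12 of 23 for the interferon list. It was found in 2 of 13 promoters of the activated fibroblast and matricellular list (15.4%). The collagen list held it in 0 of 16 and the fatty acid oxidation list in 0 of 26. At a share of 3.8% over all genes, sets this small may hold no match. A match describes the letters of this window only. The 4 promoters shown were chosen after their values were seen, because they carry the repeat in members of the list that fell. Ifit1 and Ifit3 lie on the plus strand at chr19:34640639-34640938 and chr19:34583279-34583578, Isg15 on the minus strand at chr4:156200769-156201068 and Ifih1 on the minus strand at chr2:62646206-62646505. Each reads 5′ to 3′ on the gene's strand, with motif matches in capitals, and overlapping matches run together.
Ifit1: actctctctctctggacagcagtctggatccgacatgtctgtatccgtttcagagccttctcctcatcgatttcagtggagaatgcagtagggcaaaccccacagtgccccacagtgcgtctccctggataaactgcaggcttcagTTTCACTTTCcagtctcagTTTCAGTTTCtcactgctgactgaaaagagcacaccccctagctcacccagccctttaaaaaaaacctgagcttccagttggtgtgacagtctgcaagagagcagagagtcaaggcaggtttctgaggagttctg
Ifit3: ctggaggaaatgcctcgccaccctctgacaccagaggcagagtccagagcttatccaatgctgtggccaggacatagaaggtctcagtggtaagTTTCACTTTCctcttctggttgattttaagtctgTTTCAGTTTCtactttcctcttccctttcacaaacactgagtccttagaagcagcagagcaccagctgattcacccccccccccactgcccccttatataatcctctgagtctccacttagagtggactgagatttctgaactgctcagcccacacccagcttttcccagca
Isg15: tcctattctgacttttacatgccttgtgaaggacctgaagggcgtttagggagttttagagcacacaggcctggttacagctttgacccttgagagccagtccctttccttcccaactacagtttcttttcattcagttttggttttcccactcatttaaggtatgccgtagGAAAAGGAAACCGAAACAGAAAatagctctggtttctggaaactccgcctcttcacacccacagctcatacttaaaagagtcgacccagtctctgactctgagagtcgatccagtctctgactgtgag
Ifih1: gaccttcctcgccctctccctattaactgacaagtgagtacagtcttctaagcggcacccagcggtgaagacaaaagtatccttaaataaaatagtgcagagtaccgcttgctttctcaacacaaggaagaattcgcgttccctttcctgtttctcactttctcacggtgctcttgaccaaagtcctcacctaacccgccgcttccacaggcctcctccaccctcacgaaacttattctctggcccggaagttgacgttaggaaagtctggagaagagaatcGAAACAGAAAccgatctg
Ifit1 and Ifit3 hold 2 separate matches each. Isg15 holds 3 that overlap, and its mean was 3.92 CPM in MstTg, 1.49 CPM in Mst1Gal3 and 1.72 CPM in wt (log2 change -1.38 ± 0.22, adjusted p = 1.6e-04). Ifih1 holds 1, which starts 32 bases into the transcript.

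Class I antigen presentation genes, which interferons are known to induce, were also among the lower genes. Of 16 MHC genes, 7 were lower in Mst1Gal3, against 2.35% of all genes, and none was higher. The 7 were the class I genes H2-K1, H2-Q4, H2-D1, H2-T23 and H2-Q7, their light chain B2m and the class I transactivator Nlrc5. No class II gene was called. The list's median log2 change was -0.30. H2-K1 was read at 63.2, 63.7, 57.3, 68.5 and 59.6 CPM in Mst1Gal3, against 76.9 to 117 CPM in MstTg (median 108 CPM). The groups did not overlap, and the wild-type range of 51.6 to 108 CPM took in all 5 libraries (log2 change from MstTg -0.75 ± 0.12, adjusted p = 1.9e-04). B2m fell by 0.72 ± 0.14 on the log2 scale, H2-D1 by 0.64 ± 0.12 and H2-Q4 by 0.87 ± 0.15, and the last 2 ended below wild type. The class Ib gene H2-Q6, outside the list, fell by 1.62 ± 0.24 and also lay below wild type (log2 change -1.05, adjusted p = 0.0013). H2-Q4, H2-Q6 and H2-Q7 are close paralogs, so their separate values are uncertain.

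Other genes of galectin biology also moved. Of 5 measured genes, further galectins and Lgals3bp, 2 were lower (2.35% of all genes), and both are known to respond to interferon. Lgals9, a galectin that binds immune checkpoint receptors, was 11.2, 11.5, 10.7, 9.91 and 10.9 CPM in Mst1Gal3 and 15.1 to 22.0 CPM in MstTg (log2 change -0.73 ± 0.09, adjusted p = 6.5e-06). Lgals3bp, a secreted glycoprotein that galectin-3 binds, was 19.8 to 22.7 CPM against 30.1 to 51.8 CPM (-0.88 ± 0.14, adjusted p = 1.9e-04). Neither gene overlapped between the groups, and neither differed from wild type by the test. Lgals4 (0.32 ± 0.22) and Lgals8 (-0.05 ± 0.06) were not called.

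Of 25 cell cycle genes, 6 were lower, against 2.35% of all genes, and none higher, with a list median of -0.46. These were the replicative helicase subunits Mcm2, Mcm3, Mcm4 and Mcm5, the ribonucleotide reductase subunit Rrm2 and the cyclin Ccnd2. Mcm2 stood at 5.71, 5.60, 7.0, 6.53 and 6.65 CPM, against 9.23 to 12.6 CPM in MstTg and 5.49 to 8.15 CPM in wt. Its Mst1Gal3 libraries all lay below MstTg (log2 change -0.76 ± 0.10, adjusted p = 7.5e-06) and within the wild-type range. The top of that range was wt replicate 4 alone, and the other wt libraries lay at 5.49 to 6.06 CPM. The Mst1Gal3 values of 7.0, 6.53 and 6.65 CPM were above those. Ccnd2, a D-type cyclin, had lost 47.5% of its Mst-1 rise (-0.53 ± 0.07, adjusted p = 7.6e-06), and its 214 to 280 CPM stayed above the wild-type 154 to 168 CPM. Rrm2 fell by 0.86 ± 0.20 and Mcm5 by 0.70 ± 0.16, and neither differed from wild type by the test. Both Mcm2 (-0.75, adjusted p = 0.0084) and Ccnd2 (-0.47, adjusted p = 0.013) passed the interaction test. Over the Mst-1 responsive members of the list, a median of 59.0% of the Mst-1 change was gone, against 13.3% over all genes that Mst-1 changed.

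Some matrix genes were lower, while most did not pass the test. Of 21 collagen genes, Mst-1 had raised 20, and 7 of these were lower in Mst1Gal3, against 2.35% of all genes, and none higher. The list median was -0.30. Each of the 7 still differed from wild type. The median share of the Mst-1 change that was gone was 16.0%, close to the 13.3% of all Mst-1 responsive genes. Col14a1, a fibril-associated collagen, was read at 37.0, 45.3, 56.6, 49.7 and 49.0 CPM in Mst1Gal3, 74.4 to 98.7 CPM in MstTg and 11.7 to 25.9 CPM in wt. The 3 groups did not overlap, and 37.7% of the Mst-1 rise was gone (log2 change -0.88 ± 0.13, adjusted p = 5.5e-05). Col11a1, a fibrillar collagen chain, fell by 0.92 ± 0.21, Col4a3, a basement membrane chain, by 0.55 ± 0.11 and Col5a2, which regulates fibril width, by 0.48 ± 0.10. The major fibrillar collagens did not pass: Col1a1 differed by -0.27 ± 0.18 (adjusted p = 0.461) and Col3a1 by -0.32 ± 0.12 (adjusted p = 0.139). Single libraries stood apart for both. Col1a1 was 736 CPM in Mst1Gal3 replicate 4 and 426 to 494 CPM in the others of that group. Col3a1 was 651 CPM in MstTg replicate 4 and 492 to 555 CPM in the others of that group. Without MstTg replicate 4 or without Mst1Gal3 replicate 1, 4 collagens were called.

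Matricellular proteins modulate cell contacts with the matrix. Of 28 activated fibroblast and matricellular genes, 25 had risen with Mst-1, and 6 were lower in Mst1Gal3 (Wisp1, Mfap5, Thbs4, Thbs2, Postn and Sparc), against 2.35% of all genes, and none higher. The list median was -0.36. Over the Mst-1 responsive members a median of 16.1% of the Mst-1 change was gone, close to the 13.3% over all genes that Mst-1 changed. Postn, the secreted marker of activated fibroblasts, stood at 154, 265, 265, 318 and 256 CPM, against 361 to 476 CPM in MstTg and 30.8 to 66.3 CPM in wt. Mst1Gal3 replicate 1 was the lowest, no library overlapped with MstTg, and 22.8% of the Mst-1 rise was gone (-0.76 ± 0.16, adjusted p = 0.0059). Thbs4 fell by 0.84 ± 0.16, Wisp1 by 0.90 ± 0.14, with an interaction of -1.69 (adjusted p = 0.00026), and Mfap5 by 0.64 ± 0.13. Thbs2 no longer differed from wild type (-0.57 ± 0.12 from MstTg). The connective tissue growth factor Ctgf (-0.30 ± 0.17), the protease inhibitor Timp1 (-0.22 ± 0.15) and osteopontin, Spp1 (-0.40 ± 0.21), were not called. Without wt replicate 4, 10 members were called.

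Among 19 collagen crosslinking enzymes, proteases and inhibitors, 4 were lower and 1 higher, against 2.35% and 2.54% of all genes. The lysyl oxidase Loxl2 was 19.3, 29.0, 27.9, 21.0 and 27.1 CPM against 35.6 to 50.2 CPM in MstTg (-0.73 ± 0.12, adjusted p = 3.7e-04), and the groups did not overlap. Loxl4 was the fourth lower gene (-0.70). Mmp2, a gelatinase, fell by 0.40 ± 0.08, and Plod2, a collagen lysyl hydroxylase, by 0.29 ± 0.07. Mmp9, the other gelatinase, which Mst-1 had lowered, was higher at 0.618 to 0.885 CPM against 0.122 to 0.415 CPM (1.42 ± 0.33, adjusted p = 0.0075). Of 20 TGF-beta genes 2 were lower and 1 higher, again against 2.35% and 2.54%. The type I receptor Tgfbr1 fell by 0.31 ± 0.07, and the activin subunit Inhbb rose by 0.84 ± 0.20. The stress-induced ligand Gdf15 fell by 0.97 ± 0.24. Its call was lost without Mst1Gal3 replicate 1 (adjusted p = 0.0607) or 3 (0.0515), and without the 6 libraries with atrial transcripts (0.0597). The ligand Tgfb2, at 28.7 to 33.9 CPM, overlapped the MstTg libraries (-0.13 ± 0.07, adjusted p = 0.321). Fibroblast identity markers moved both ways, with 2 of 17 higher and 2 lower, against the same shares of all genes. Scara5, a ferritin receptor of resting fibroblasts, rose from 3.21 to 6.39 CPM in MstTg to 12.4, 10.3, 11.4, 12.8 and 12.3 CPM, and 54.7% of its Mst-1 fall was gone (1.20 ± 0.13, adjusted p = 3.1e-07). Scara5 lies 18.3 Mb and Loxl2 22.2 Mb from Lgals3.

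**Figure D4:**
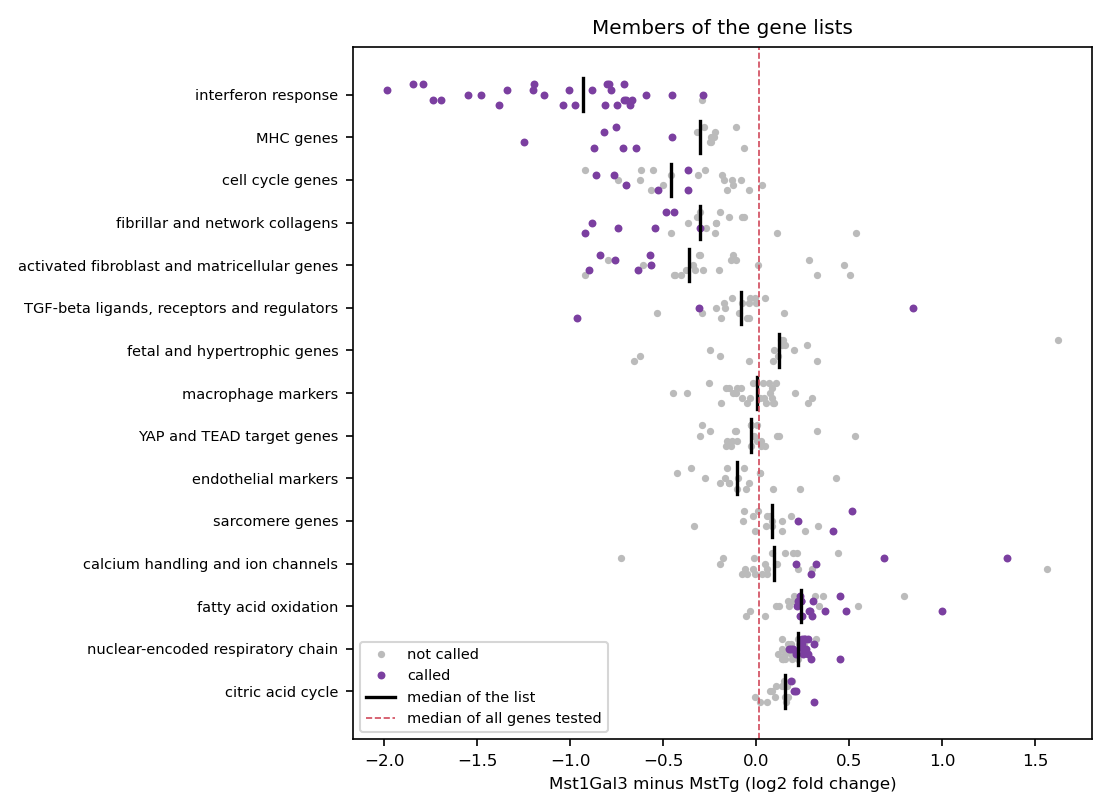
Log2 change of Mst1Gal3 from MstTg (horizontal) for every measured member of 15 gene lists. Purple points are called genes, grey points are not, black bars are list medians and the dashed line is the median of all genes tested. The interferon list is shifted left with 29 of 30 called, and the metabolic lists are shifted right by small amounts. The macrophage, endothelial, YAP and TEAD target and fetal lists hold no called gene.

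None of the 16 fetal and hypertrophic genes, of which Mst-1 had raised 15, was called by edgeR, limma-voom or DESeq2. Of the 16, 1 was called by limma-voom with quality weights, and 5 had an unadjusted p under 0.05 (31.2%, against 18.3% of all genes). The list's median log2 change was 0.12. The atrial natriuretic peptide gene Nppa stood at 1071, 1604, 1506, 2103 and 1217 CPM in Mst1Gal3, against 1987 to 2664 CPM in MstTg. Only replicate 4 reached the MstTg range, and the change of -0.62 ± 0.23 missed the threshold over all genes (adjusted p = 0.129), whereas the summed atrial list that Nppa dominates passed its exact test among the 7 library measures. Nppb, the B-type peptide, differed by 0.10 ± 0.16, skeletal actin Acta1 by 0.33 ± 0.33, the LIM protein Fhl1 by 0.20 ± 0.07 and the beta myosin heavy chain Myh7 by -0.66 ± 0.30 (adjusted p = 0.248). Myh7 had a knockout effect of 1.44 in Gal3Ko against wt (adjusted p = 0.019), and the interaction test passed (-2.10, adjusted p = 0.019).

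Of 19 sarcomere genes, 3 were higher, against 2.54% of all genes, and none lower: cardiac troponin C (Tnnc1, 0.51 ± 0.10), the alpha myosin heavy chain Myh6 (0.41 ± 0.09) and the Z-disc protein Ldb3 (0.23 ± 0.06). All 3 lie on chromosome 14, at 16.2, 7.56 and 12.8 Mb from Lgals3, and the part of that position in their change was not tested. Tnnc1 stood at 1297, 1303, 1281, 2056 and 1227 CPM against 835 to 1232 CPM in MstTg, with replicate 4 far above the others and replicate 5 inside the MstTg range. The Ldb3 call was lost under 10 alternatives. Of 28 calcium handling and ion channel genes, 5 were higher, against 2.54% of all genes, and none lower, and each of the 5 was still below wild type. Scn4b, a sodium channel beta subunit, was 2.93, 3.67, 2.57, 3.63 and 4.32 CPM, against 1.06 to 1.71 CPM in MstTg and 50.6 to 100.3 CPM in wt. It was clear of MstTg in every library but remained far below wild type, with 23.7% of the log2 fall gone (1.35 ± 0.31, adjusted p = 0.0098). Its call was lost under 1 alternative. The acetylcholine-regulated potassium channel gene Kcnj3 rose by 0.69 ± 0.10, the transient outward channel gene Kcnd3 by 0.32 ± 0.08, a call lost with library totals and without Mst1Gal3 replicate 1, and the histidine-rich calcium binding protein Hrc by 0.29 ± 0.06. The calcium pump gene Atp2a2 came close at 0.23 ± 0.07 (adjusted p = 0.053).

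Part of the mitochondrial energy genes, which Mst-1 lowers broadly, were slightly higher, against 2.54% of all genes called higher, and no member of these lists was lower. Of 30 fatty acid oxidation genes, 15 were higher, with a list median log2 change of 0.24. All 15 still lay below wild type. Over the Mst-1 responsive members of the list, the median share of the Mst-1 change gone was 18.2%, against 13.3% over all genes that Mst-1 changed. Acaa2, the thiolase of the last step of the cycle, was 203, 190, 169, 183 and 206 CPM, against 113 to 160 CPM in MstTg and 577 to 680 CPM in wt. The groups did not overlap (0.48 ± 0.07, adjusted p = 2.8e-05). The thioesterase Acot1 rose by 1.0 ± 0.21, the electron transfer subunit Etfb by 0.45 ± 0.10 and the fatty acid carrier Fabp3 by 0.28 ± 0.06. Of 36 nuclear-encoded respiratory chain genes, 16 were higher, with a median of 0.23, among them Cox7a1 (0.45 ± 0.09), Sdhc (0.26 ± 0.06), Sdhb (0.31 ± 0.08) and Ndufb8 (0.26 ± 0.07). In the citric acid cycle 4 of 19 were higher, including Suclg1 (0.21 ± 0.05) and Idh3b (0.20 ± 0.05). Of the 7 mitochondrial-encoded genes measured, 1 was higher. The nuclear receptor Rxrg, a partner of the PPAR factors, rose by 0.46 ± 0.08, and the mitochondrial-encoded subunit mt-Nd6 by 0.76 ± 0.14. The Idh3b call was lost under 8 alternatives, those of Sdhb and Ndufb8 under 4 each, that of Etfb under 3, that of Suclg1 under 2 and that of Sdhc under 1. Leaving out Mst1Gal3 replicate 4 ended the calls of Idh3b, Sdhb, Ndufb8 and Etfb, replicate 2 those of Idh3b and Suclg1, and replicate 1 or MstTg replicate 1 that of Idh3b.

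These small shifts rested on the scaling and on single libraries. With library totals, 5 fatty acid oxidation genes and 1 respiratory chain gene were called. Fatty acid oxidation calls numbered 7 without Mst1Gal3 replicate 1 and 8 without replicate 2. Respiratory chain calls numbered 2 without Mst1Gal3 replicate 4, 8 without replicate 1 or 2, and 25 without MstTg replicate 5. They numbered 7, 5, 9 and 6 without MstTg replicates 1, 2, 4 and 7.

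Cardiomyocyte markers were higher for 4 of 15, against 2.54% of all genes, and none was lower. Their median log2 change was 0.19, and 1 of the 4 lies on chromosome 14. By edgeR 10 of the 15 had an unadjusted p under 0.05 (66.7%, with 18.3% over all genes). Most markers of other cell types did not pass the test. None of 28 macrophage markers was called by edgeR, DESeq2 or either limma-voom fit, and 2 had an unadjusted p under 0.05 (7.14%, with 18.3% over all genes). Their median was 0.00, and their summed level was 368 to 449 CPM in Mst1Gal3 and 359 to 434 CPM in MstTg. Adgre1, the macrophage surface protein F4/80, was 13.7, 13.4, 13.3, 12.8 and 19.7 CPM against 13.1 to 16.8 CPM. The groups overlapped (-0.05 ± 0.12). Fcgr1 (-0.45 ± 0.18), Mpeg1 (-0.37 ± 0.15), Cd163 (0.30 ± 0.16) and Gpnmb (0.28 ± 0.17) were not called. None of 18 endothelial markers was called by edgeR, with 6 at an unadjusted p under 0.05, 1 called by DESeq2 and 3 by limma-voom with quality weights. None of 15 smooth muscle and pericyte markers was called by edgeR, with 2 at an unadjusted p under 0.05 and 1 called by DESeq2. Of 7 lymphatic endothelial markers, 2 were lower, against 2.35% of all genes: Reln (-0.57 ± 0.12, adjusted p = 0.0034) and Sema3d (-0.49 ± 0.12, adjusted p = 0.0095), and both remained above wild type. Of 6 mast cell markers, 1 was lower, the histidine decarboxylase gene Hdc (-0.64 ± 0.18, adjusted p = 0.030), while the list median was 0.88 and 5 had an unadjusted p under 0.05 (83.3%, with 18.3% over all genes). Cpa3, a mast cell protease, had a log2 change of 1.05 ± 0.32 at an adjusted p of 0.055. DESeq2 called 3 of the 6. None of 7 Schwann cell markers was called by edgeR, DESeq2 or either limma-voom fit, 3 had an unadjusted p under 0.05, and the median was 0.32. Reln, Sema3d, Hdc and Cpa3 were chosen after their values were seen.

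Inflammatory mediators changed in both directions, with 2 of 23 higher and 2 lower, against 2.54% and 2.35% of all genes. The chemokine Cxcl14 rose from 1.63 to 3.34 CPM in MstTg to 6.50, 4.57, 5.45, 5.19 and 6.4 CPM, which left it under the wild-type 11.7 to 22.1 CPM (1.18 ± 0.18, adjusted p = 1.2e-04). Cxcl12, a chemokine of stromal cells, rose by 0.44 ± 0.09, a call lost with library totals. The interferon-inducible chemokine Cxcl9 fell by 0.73 ± 0.20, away from wild type, and the alarmin Il33 fell by 0.62 ± 0.19. Without Mst1Gal3 replicate 1 the adjusted p was 0.142 for Il33 and 0.107 for Cxcl9. The Il33 call was lost under 19 alternatives in all, and the Cxcl9 call also without Mst1Gal3 replicate 4 or MstTg replicate 2.

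The Hippo pathway beyond Stk4 showed few changes. Of 23 components, 2 were lower, against 2.35% of all genes, the transcription factor Tead4 (-0.52 ± 0.12) and the coactivator TAZ, Wwtr1 (-0.20 ± 0.06). The Wwtr1 call was lost without Mst1Gal3 replicate 1, 3 or 5 or MstTg replicate 4. None of 23 YAP and TEAD target genes was called by any of the 4 tools, and 2 had an unadjusted p under 0.05. Cyr61 differed by 0.33 ± 0.14 and Ankrd1 by -0.25 ± 0.12. Among stress genes, 1 of 9 NADPH oxidase and 2 of 20 integrated stress response genes were lower, against 2.35% of all genes. The same held for 1 of 22 p53 and apoptosis genes and 1 of 19 autophagy genes. Antioxidant genes were higher in 4 of 24, against 2.54% of all genes. No endoplasmic reticulum chaperone of 18 was called by edgeR, with 5 at an unadjusted p under 0.05. The hydrogen peroxide-producing oxidase Nox4 fell from 14.8 to 25.4 CPM in MstTg to 10.2 to 13.9 CPM (-0.68 ± 0.15, adjusted p = 0.0069), and the stress protein Nupr1 fell by 0.67 ± 0.13. The mitochondrial peroxidase Prdx3 (0.25 ± 0.06), the glutathione transferase Gsta4 (0.39 ± 0.10) and catalase, Cat (0.23 ± 0.07), rose, the last with a call lost under 11 alternatives. The Prdx3 and Gsta4 calls were lost without Mst1Gal3 replicate 4, and that of Prdx3 also with library totals. Of 17 circadian clock genes, edgeR called 1, DESeq2 4, limma-voom 3 and limma-voom with quality weights 4. An unadjusted p under 0.05 was found for 12 (70.6%, with 18.3% over all genes), and the list median was -0.35. The called gene, the clock-controlled factor Hlf, fell by 1.03 ± 0.27, a call that was lost under 8 alternatives. The time of day of tissue collection is not given in the sources used here.

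Among the remaining large or precise movements towards wild type, Arhgap22, a GTPase-activating protein, had the largest fall after Lgals3 among genes that average 1 CPM or more and carry an established symbol. It stood at 2.97, 2.80, 2.88, 3.33 and 3.85 CPM, against 15.5 to 22.3 CPM in MstTg and 1.85 to 3.10 CPM in wt. Mst1Gal3 lay far below MstTg and slightly above wild type (log2 change 0.51, adjusted p = 0.0034), with 83.3% of the log2 Mst-1 rise gone (-2.56 ± 0.12, adjusted p = 1.4e-15). Ddhd1, a phospholipase, fell to 16.3 to 19.3 CPM from 31.2 to 37.6 CPM, within the wild-type range of 14 to 20.5 CPM (-1.06 ± 0.09). Both lie on chromosome 14, at 14 and 1.71 Mb from Lgals3. Apod, a lipid-binding lipocalin, fell to 12.6 to 16.0 CPM from 23.9 to 29.9 CPM (-0.87 ± 0.09), and Rpl3l, the striated muscle form of a ribosomal protein, rose to 40.3 to 53.5 CPM from 23.1 to 32.6 CPM (0.72 ± 0.08). The BMP-binding protein Bmper rose by 1.20 ± 0.16 and no longer differed from wild type, nor did the cadherin Cdh22 (1.63 ± 0.41, a call lost under 3 alternatives). Penk, which encodes the enkephalin precursor, rose by 1.53 ± 0.28, the mitochondrial tRNA gene mt-Tt by 1.48 ± 0.31 and the membrane protein Ano5 by 1.42 ± 0.40. The Ano5 call was lost under 13 alternatives.

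Of the 58 genes that moved away from wild type, Mst-1 had raised 44, and these were higher still in Mst1Gal3. Stard10, a lipid transfer protein and a member of the atrial marker list, stood at 22.8, 23.1, 23.1, 30.2 and 22.3 CPM, against 13 to 16.1 CPM in MstTg and 9.96 to 16.0 CPM in wt (0.71 ± 0.10, adjusted p = 3.9e-05). MstTg and wt overlapped and Mst1Gal3 was above both. Kcnma1, the large-conductance calcium-activated potassium channel, was 7.29, 6.51, 6.17, 7.0 and 7.23 CPM against 1.20 to 2.63 CPM in MstTg and 0.0986 to 0.914 CPM in wt (1.99 ± 0.29, adjusted p = 6.0e-05). In Gal3Ko it was 0.250 to 1.94 CPM and not called (0.58, adjusted p = 0.891). Atp1b4, a muscle protein of the sodium pump beta subunit family, rose by 0.86 ± 0.14 and the transporter Slc6a17 by 0.70 ± 0.12. The small heat shock proteins Hspb6 (0.37 ± 0.09) and Cryab (0.27 ± 0.08), raised by Mst-1, rose further, the latter with a call lost under 9 alternatives. Adamts3, a procollagen protease, fell by 0.58 ± 0.11. Efs (0.68 ± 0.13), Samd4 (0.29 ± 0.06) and the autophagy receptor for ferritin, Ncoa4 (-0.51 ± 0.09) lie 7.53, 0.262 and 15.2 Mb from Lgals3, and Kcnma1 lies 23.4 Mb from it.

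Called genes were dense on chromosome 14, which carries Lgals3. There 76 of 484 genes were called (15.7%), and within 20 Mb of Lgals3 51 of 276 (18.5%), 27 higher and 24 lower. On all other chromosomes the share was 4.54%. Of the 51, 20 were also called in Gal3Ko against wt, all with the same sign, and those libraries are not shared with the present comparison. On the other chromosomes 7 of 668 were called in both, again with the same sign. What part the position near Lgals3 had in the calls was not tested. Among genes that average 1 CPM or more and carry an established symbol, the 6 smallest p-values within 20 Mb, Lgals3 apart, belonged to Arhgap22, Ddhd1, Scara5, Ppp1r3e, Irf9 and Rnase4. Ppp1r3e, a glycogen-targeting subunit of protein phosphatase, fell to 0.535 to 1.01 CPM from 1.85 to 2.55 CPM (-1.51 ± 0.18), and by 1.70 in Gal3Ko. The ribonuclease genes Ang (-1.58 ± 0.23) and Rnase4 (-0.60 ± 0.08) overlap each other, so their reads cannot be told apart fully, and both also fell in Gal3Ko (-2.03 and -0.48). Without chromosome 14 the table gave 643 called genes, of which 28 were on the interferon list. Only 1 of the 29 called genes of that list lies on chromosome 14. Leaving the chromosome out therefore could hardly change the list's count.

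**Figure D5:**
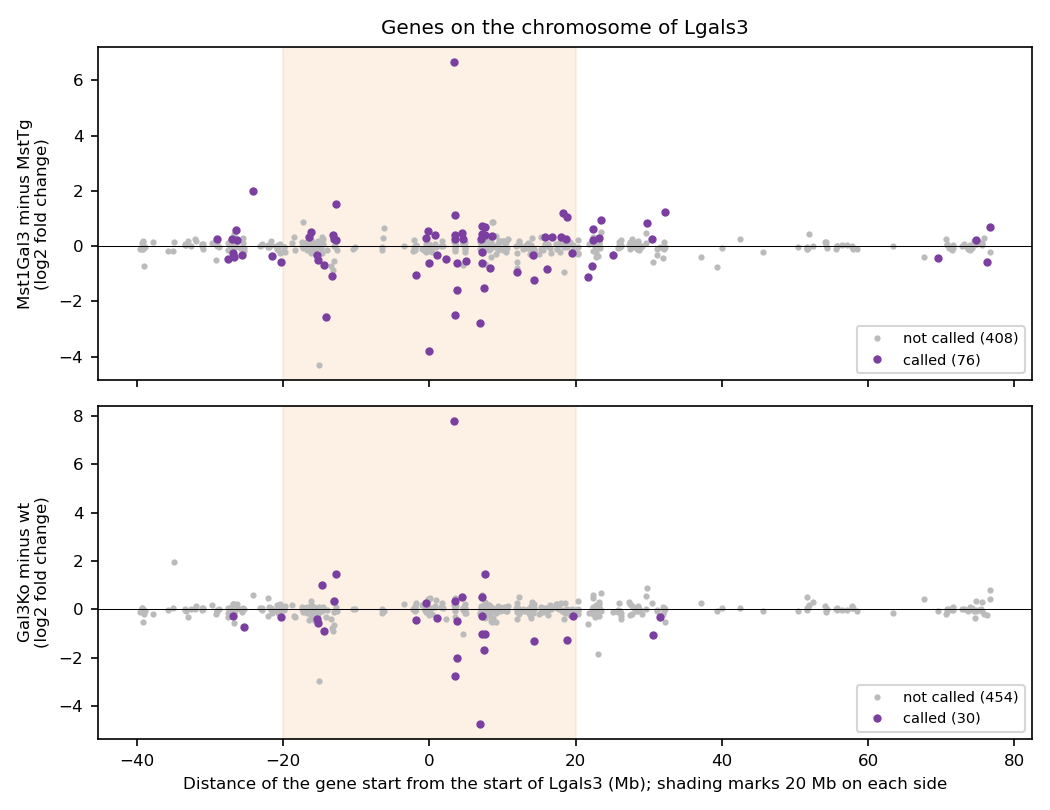
Log2 changes (vertical) of the 484 genes on chromosome 14 against the distance of their start from that of Lgals3 in Mb (horizontal), for Mst1Gal3 minus MstTg above and Gal3Ko minus wt below. Purple points are called genes, 76 above and 30 below. Shading marks 20 Mb on each side, where called genes are dense in both panels.

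The 116 called genes without a Mst-1 change included 53 that were higher and 63 lower. Rprl3 and Rprl2, near-identical RNase P RNA genes whose separate values are uncertain, showed the highest rises. Rprl3 had 660, 922, 2369, 1487 and 1194 counts in the Mst1Gal3 libraries and at most 3 in any MstTg library, and Gal3Ko had 667 to 1828 counts. Rprl2 had 60 to 144 counts in Mst1Gal3 and at most 1 in MstTg. The guanylate-binding gene Gbp7 (-0.79 ± 0.12), Slfn3 of the schlafen family (-0.73 ± 0.11) and Ly6a, the stem cell antigen Sca-1 (-0.60 ± 0.10), fell below wild type, and these genes or their families are known to be interferon-inducible. Tep1, a telomerase-associated protein 3.44 Mb from Lgals3, rose by 0.40 ± 0.07 and by 0.35 in Gal3Ko.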

How the data were processed

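The authors deposited raw counts per gene for 26 libraries of ribosomal-RNA-depleted left ventricle RNA. Among tools, STAR, featureCounts and bcl2fastq 2.19.1.403 are given, with the mouse build GRCm38, per the submitters' processing notes. The library kit keeps strand, per the labels' protocols, and the strand setting of the counting is not given in the sources used here. The lowest mean count of any gene was 10. Positions came from GENCODE annotation of GRCm38 for 15195 genes, and 54 had none.

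All libraries entered 1 edgeR fit (4.0.16, R 4.3.3) of the 4 group means, with TMM scaling, filterByExpr (0 genes removed), robust two-sided quasi-likelihood F tests, 22 residual degrees of freedom and Benjamini-Hochberg adjustment over 15249 genes. The code was tested on simulated data. Within wt, MstTg and Mst1Gal3, every pair of libraries differed by more than sampling noise (lowest chi-square per degree of freedom 4.90). Library measures were compared by exact permutation over 792 splits, with a smallest possible p of 0.00126. Alternatives were DESeq2 1.42.0, limma 3.58.1, other scalings and filters, a replicate block, an Stk4 covariate and leaving out each library. Replicate numbers did not pair libraries: same-numbered MstTg and Mst1Gal3 libraries correlated at -0.28 to -0.04 in their deviations from group means.

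Genes named are Stk4 and Lgals3, the 10 largest rises and falls of genes that average 1 CPM or more and carry an established symbol rather than a predicted-gene name, the 8 smallest p-values among genes moving towards wild type, away, or without Mst-1 change, up to 4 members of each list, fixed disease readouts and the 6 smallest p-values within 20 Mb of Lgals3. 1 member of the interferon list is counted but not reported here by itself. Other members named in counts were chosen after their values were seen. The comparison, gene lists and readouts were chosen with earlier results of these data known.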

Additional observations from a re-analysis of the deposited data

Results flagged for a closer look

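The knockout effect in the Mst-1 background differed from the effect outside it for 33 of the named genes (edgeR interaction test, Benjamini-Hochberg over all genes, 0.656% of all genes called). Only genes also called in Mst1Gal3 against MstTg or in Gal3Ko against wt were counted. Many named genes were chosen by their change from MstTg, which is part of the interaction. The number 33 therefore cannot be set against the share of all genes. The values below are log2 differences of the effect with Mst-1 minus the effect without it. Among the interferon list they were Irf7 (-1.87), Ifit1 (-1.67), Ifit3 (-1.33), Usp18 (-1.27), Irf9 (-0.78) and Ifih1 (-0.64). Of other interferon-related genes they were Oasl1 (-1.71), Pydc4 (-1.41) and Lgals9 (-0.60). Of matrix and TGF-beta genes they were Wisp1 (-1.69), Loxl2 (-0.73), Plod2 (-0.41), Tgfbr1 (-0.44), Adamts3 (-0.67) and Mmp9 (1.90). Of cell cycle genes they were Mcm2 (-0.75) and Ccnd2 (-0.47). Of chemokines they were Cxcl14 (1.28) and Cxcl12 (0.61). Of channel and myosin genes they were Scn4b (1.68), Kcnj3 (0.60) and Myh7 (-2.10). Of metabolic, antioxidant and mitochondrial genes they were Acaa2 (0.46), Rxrg (0.48), Gsta4 (0.56) and mt-Tt (1.87). On chromosome 14 they were Lgals3 (-4.22), Arhgap22 (-2.24), Ddhd1 (-0.60) and Scara5 (1.253). Of the remaining genes named they were Bmper (1.11), Penk (1.49) and Rpl3l (0.61). Irf9, Myh7 and Loxl2 also lie on chromosome 14.

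In 29 of 381 groups of 5 to 7 libraries checked, the highest or lowest library stood apart from the rest by more than chance gives in about 1 of 20 groups. The groups came from wt, MstTg and Mst1Gal3, and Gal3Ko was not checked. Replicate 2 of wt stood apart for mt-Tt (8.43), Scara5 (32.8), Rnase4 (39.1) and Acaa2 (680) in CPM. Replicate 3 of wt stood apart for Etfb (22.9) in CPM. Replicate 4 of wt stood apart for Irf7 (9.39), Loxl2 (15.5) and Mcm2 (8.15) in CPM. Replicate 6 of wt stood apart for Stk4 (26.1) in CPM. Replicate 1 of MstTg stood apart for Scara5 (3.21), Tgfbr1 (57.5) and Hrc (192) in CPM. Replicate 4 of MstTg stood apart for Col3a1 (651) in CPM. Replicate 5 of MstTg stood apart for Ankrd1 (3352) in CPM. Replicate 6 of MstTg stood apart for Ddhd1 (31.2) in CPM. Replicate 7 of MstTg stood apart for Ano5 (3.13) and H2-K1 (76.9) in CPM. Replicate 1 of Mst1Gal3 stood apart for Mfap5 (37.4) and Acot1 (2.85) in CPM. Replicate 2 of Mst1Gal3 stood apart for Cyr61 (250) in CPM. Replicate 4 of Mst1Gal3 stood apart for Stard10 (30.2), Col1a1 (736), Etfb (15.8), Ndufb8 (109) and Tnnc1 (2056) in CPM. Replicate 5 of Mst1Gal3 stood apart for Adgre1 (19.7) in CPM. In wt replicate 1 the 10 most abundant genes took 44.2% of counts, and in wt replicate 2 red blood cell genes summed to 336 CPM. In MstTg replicate 1 mitochondrial-genome transcripts took 23.4% of counts. Tnnc1, Etfb, Ndufb8, Stard10 and Col1a1 were each highest in Mst1Gal3 replicate 4.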

How the results depend on the processing

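No gene among the 746 changed sign under any alternative that tested it, and 76 of 97 called named genes kept their call under every alternative. The interferon count ran from 27 to 29 and the MHC count stayed at 7 when each library was left out. With library totals in place of TMM, 136 genes were higher, 558 lower and 38 away from wild type, with 5 fatty acid oxidation and 1 respiratory chain gene called. DESeq2 size factors gave 9 respiratory chain genes. A fit of the compared groups alone gave 12 matricellular, 9 fatty acid oxidation and 4 respiratory chain genes. An Stk4 covariate gave 229 higher genes, 11 collagens, 12 matricellular, 9 fatty acid oxidation and 2 respiratory chain genes. DESeq2 called 89 genes in Gal3Ko against wt and 195 interactions. Limma-voom called 10 matricellular genes. With quality weights it called 546 lower genes, 123 away, 182 without a Mst-1 change, 13 collagens, 15 matricellular genes and 88 genes in Gal3Ko against wt. Without chromosome 14, 14 genes were called in Gal3Ko against wt. Without the 6 libraries with atrial transcripts, chosen after seeing the data, 647 genes were higher, 253 were back at wild type, 27 respiratory chain genes were called and 33 genes in Gal3Ko against wt. The cause of these differences was not tested.

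Leaving out each library in turn gave 469 to 1040 called genes, 225 to 631 higher, 244 to 409 lower, 362 to 788 towards wild type, 118 to 231 back at it, 11 to 28 past it, 33 to 86 away and 74 to 166 without a Mst-1 change. It gave 4 to 8 collagens, 6 to 10 matricellular, 7 to 19 fatty acid oxidation, 2 to 25 respiratory chain and 5 to 9 cell cycle genes. Calls in Gal3Ko against wt ran from 38 to 80 and interactions from 52 to 189. Among library measures, the difference of Mst1Gal3 from MstTg was 1.16 to 2.36 points for the share of the 10 most abundant genes, 107 to 149 CPM for skeletal muscle markers and 4.07 to 5.57 for genes detected.

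With the replicate number as a block, 608 genes were called, 557 of the 746 among them, with 51 interactions and 6 respiratory chain genes. The numbers do not pair the libraries, and no library correlated best with its own number. In simulated data for this comparison, 96% of 50 genes changed by 1.5-fold were recovered and 32% of 50 with the smallest simulated fold. Smaller changes were thus often not detectable at this depth. The simulation gave every gene the same spread and changed only genes with a mean count of at least 50. Recovery of genes with a wider spread was not tested. In the real data Fmod (-0.92 ± 0.32, edgeR adjusted p = 0.102) and Comp (-0.80 ± 0.32, adjusted p = 0.170) were not called.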
